A study of Rattus norvegicus with 4 samples.

Results

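Salt, water and bicarbonate move across the colonic surface through a small set of proteins, and 9 of their genes were examined in the colon mucosa of F344 rats with dextran sodium sulphate (DSS) colitis. The genes were Scnn1a, Scnn1b and Scnn1g (the 3 subunits of the epithelial sodium channel), Cftr (a chloride and bicarbonate channel), Aqp8 (a water channel), Atp1b1 (a sodium pump subunit) and Car1, Car2 and Car4 (carbonic anhydrases). They are 9 of 15544 named genes on the array and were measured by 11 probes. Probes were matched by gene name or accession, with no use of measured values. The genes themselves were chosen with earlier results of these data known. The array files carry older names for the 3 anhydrases (Ca2, Ca4 and Car1_predicted).

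All rats drank 5% DSS, which injures the colonic epithelium, for 5 days. Before that, the treated rats had eaten resveratrol, a polyphenol of grapes and other plants, for 20 days at a daily dose of 1 mg per kg, and the control rats had eaten standard chow. Each of 4 two-colour Agilent arrays held mucosal RNA of 2 resveratrol rats, 8 different rats in all, in the Cy5 channel and a pool of control rats in Cy3. No rats without DSS were compared here, so the values do not say how far colitis itself had moved a gene. The dyes were not exchanged, so a probe's dye bias and an effect of resveratrol cannot be told apart. The pool stands as 1 control sample and leaves out the spread among control rats. Arrays 1 and 2 lay on slide 1, and arrays 3 and 4 on slide 2.

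Values are log2 ratios of Cy5 over Cy3 after normalization within each array, so a positive value means more transcript with resveratrol and a value of 1 is a doubling. Errors after ± are moderated standard errors from limma, and a probe was called where its p-value, adjusted by Benjamini-Hochberg over all 18869 tested probes, was under 0.05. With 4 arrays the number of arrays limits the precision. In bulk mucosa, fewer cells of a type and less RNA per cell cannot be told apart.

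The 3 subunits encoded by Scnn1a, Scnn1b and Scnn1g form the amiloride-sensitive channel ENaC in the apical membrane of distal colonocytes, where aldosterone raises sodium uptake through it. Sodium entering by this route leaves through the basolateral sodium pump, whose beta 1 subunit Atp1b1 encodes, and water follows. Chloride and bicarbonate leave the cell through the CFTR channel, mainly in the crypts. Carbonic anhydrases hydrate carbon dioxide to bicarbonate and protons, with CAR1 and CAR2 in the cytosol and CAR4 anchored at the outer cell surface, and so feed the exchangers that absorb sodium chloride. Injury of the colonic surface in colitis is known to lower many of these genes.

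The letters of the probes matter here because the 2 Scnn1a probes and the 2 Cftr probes read different stretches of 1 gene, and because the 3 channel subunits are described side by side. The first 30 of the 60 bases of each are given as the array files list them, with positions in the rn3 rat assembly that the files use. No annotation of that assembly was used here, so exon and UTR positions are not given. The capitals in the Car4 probe mark the 6 letters ACCTCA, one of 2 overlapping hexamers (the other is CACCTC) searched for in the probe letters as printed on the array.
Scnn1a probe 1 (chr4:161713781-161713840, plus strand): taagacagaccagggtaggcctggtgttct
Scnn1a probe 2 (chr4:161711823-161711991, plus strand): ctccttggacagcctgggctgtctctccaa
Scnn1b (chr1:180887845-180887904, plus strand): agtgaccttgccctagttggcattggctga
Scnn1g (chr1:180729138-180729197, plus strand): cactcctgccaaatggtattcccacaatct
Cftr probe 1 (chr4:44241264-44241323, plus strand): cgagaagagtgtcttccagcgagcccttag
Cftr probe 2 (chr4:44195829-44195889, plus strand): aacagattctccaaagatatagcaattttg
Aqp8 (chr1:182476257-182477003, plus strand): aggctcttcattggagatgagaaaacccgc
Car4 (chr10:73251885-73251944, plus strand): ACCTCAacctttagaggatatggcttctct
The second Scnn1a probe spans 169 bases of the genome and the Aqp8 probe 747, both longer than the probe itself. Among all tested probes 3.81% held CACCTC or ACCTCA, with a median log2 ratio of 0.20 against -0.03 for those without. These 2 hexamers had been picked out earlier from the highest probes of these arrays, so that gap is a description. Of the 9 genes the only one with such letters was Car4, which is named beside its values.

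Scnn1a, which encodes the pore subunit that channel assembly depends on, was higher with resveratrol on every array. Probe 1 is spotted 10 times on each array and gave ratios of 0.82, 0.45, 0.30 and 0.36 on arrays 1 to 4. The mean was 0.48 ± 0.11 (n = 4 arrays), a 1.40-fold difference with an adjusted p of 0.0192 in limma. The standard deviation between the spots of 1 array was between 0.12 and 0.21, against 0.23 between the means of the 4 arrays. Probe 2, a single spot that reads another stretch of the gene and had Cy3 well above background on 3 arrays, gave 0.59, 0.41, 0.64 and 0.85, with a mean of 0.62 ± 0.10 (n = 4 arrays) and an adjusted p of 0.00755. Both probes were thus above 0 on 4 of 4 arrays, although array 1 was the highest for the first and array 4 for the second. Probe 1 lost its call without array 1 (0.37, adjusted p = 0.0697 in limma) and without array 2 (0.49, adjusted p = 0.0685), and on slide 2 alone it gave 0.33 (0.144). Probe 2 was called in all 15 alternatives it could be run in, with adjusted p-values in limma up to 0.0477.

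Scnn1b, the beta subunit, lay slightly below 0 on every array. Its ratios were -0.13, -0.21, -0.39 and -0.14, with array 3 the lowest, and the mean of -0.22 ± 0.09 (n = 4 arrays) did not pass in limma (adjusted p = 0.0777). None of the 17 alternatives called it. The 40 spots of this probe were all used, and their standard deviation within an array was between 0.16 and 0.33.

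Scnn1g, the gamma subunit, was close to the limit of the scanner. Its Cy3 signal was well above background on 2 arrays and its Cy5 signal on 0, so the probe was not tested. The ratios were -0.06, -0.17, -0.17 and 0.15, near 0 on every array. With Cy5 at background on every array and Cy3 on 2 of them, these ratios measure neither a difference nor its absence.

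On the same array the Scnn1a ratio exceeded that of Scnn1b by 0.95, 0.66, 0.70 and 0.50, a mean of 0.70 ± 0.19 (SD, n = 4 arrays). The difference ran the same way on 4 of 4 arrays. The exact two-sided sign-flip permutation test gave p = 0.13 (2 of 16 sign patterns), the smallest that this test allows with 4 arrays. The other 2 of the 3 pairs tested involve Scnn1g, whose probe lay at background, and are not read here. The values are differences between ratios and say nothing of how many molecules of each subunit were present.

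Cftr, the apical chloride and bicarbonate channel, had a called probe and a dim one. Probe 1 read 221, 359, 215 and 263 intensity units in Cy3 and 804, 751, 363 and 852 in Cy5 before any correction. The Cy5 signal was well above background on 4 arrays and the Cy3 signal on 3. After normalization the ratios were 0.70, 0.51, 0.84 and 1.08, with a mean of 0.78 ± 0.11 (n = 4 arrays), a 1.72-fold difference with an adjusted p of 0.00644. It was called in all 16 alternatives it could be run in, with means between 0.60 and 1.17 and adjusted p-values in limma up to 0.0461. No other of the 9 genes kept its call, by its brightest probe, under every alternative it could be run in. The filter that asked for Cy3 and Cy5 signal above background on every array left Cftr out, because its Cy3 passed on only 3. Under that filter Scnn1a, Car2 and Car4 stayed called (adjusted p in limma of 0.0295, 0.0427 and 0.0238), so Cftr was not put to a test that they passed.

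The second Cftr probe lay close to background. It was designed on an older partial coding sequence and lies at lower coordinates than the first. Cy3 was well above background on 2 arrays and Cy5 on 1, so this probe was not tested. Its ratios were -0.05, -0.34, -0.43 and -0.67, below 0 on 4 of 4 arrays and below those of probe 1 on each. Its signal ranks at the 0.938th percentile of the tested probes and that of probe 1 at the 37.6th. With Cy5 well above background on only 1 array, these ratios measure neither a difference from probe 1 nor its absence. Whether the probes read different transcripts was not tested.

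**Figure D1:**
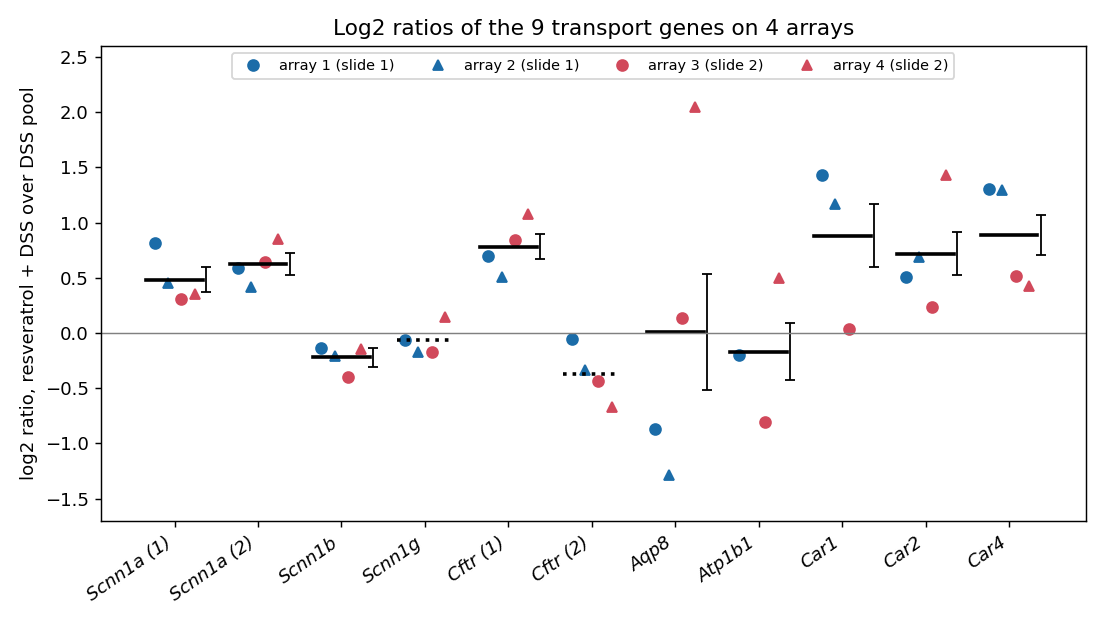
Log2 ratio (vertical axis, resveratrol plus DSS over the DSS pool) of every probe of the 9 genes on each of 4 arrays. Points are arrays, coloured by slide; solid lines are means with moderated standard errors, and dotted lines are means of probes that were not tested. Both Scnn1a probes, Cftr probe 1, Car2 and Car4 lie above 0 on all arrays, Scnn1b lies below 0 on all, and Aqp8 runs from -1.29 to 2.05.

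Aqp8, the water channel of colonic surface cells, had a mean near 0 over arrays that pointed both ways. The ratios were -0.87, -1.29, 0.14 and 2.05, and the mean was 0.01 ± 0.53 (n = 4 arrays) with an adjusted p of 0.991 in limma. The 2 arrays of slide 1 were both low and array 4 was by far the highest. The scanned Cy5 signal was 386, 351 and 366 units on arrays 1 to 3 and 2575 on array 4, while Cy3 was 324, 578, 315 and 343. On array 2 the Cy5 signal was not well above background. On slide 1 alone the mean was -1.08 and called (adjusted p = 0.000645), and on slide 2 alone it was 1.09 and not called (0.139). Without array 4 the mean was -0.67 (adjusted p = 0.113 in limma). No other of the 9 genes ranged as widely.

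Atp1b1, whose product carries the sodium pump to the basolateral membrane, was not called. Its ratios were -0.20, -0.80 and 0.50 on arrays 1, 3 and 4. The spot on array 2 was flagged as an outlier by the scanner and left out. The mean of -0.17 ± 0.26 (n = 3 arrays) had an adjusted p of 0.601 in limma, and the arrays lay on both sides of 0. The sign of this gene depends on the normalization. When arrays were only centred on their medians, the ratios were 0.57, 0.10 and 1.08 and the mean of 0.58 was called higher (adjusted p = 0.0109). With flagged spots kept the mean was 0.74 (adjusted p = 0.0142).

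Car4, the membrane-anchored anhydrase of the apical surface, was higher on every array. Its scanned signal was 451, 930, 468 and 658 units in Cy3 and 3126, 3728, 827 and 1682 in Cy5. The ratios were 1.30, 1.30, 0.52 and 0.43, all above 0, with both arrays of slide 1 above both of slide 2. The mean was 0.89 ± 0.18 (n = 4 arrays), which differs from that of Car1 by less than the error of either, a 1.85-fold difference with an adjusted p of 0.0146. Without array 1 it was 0.75 (adjusted p = 0.0524), without array 2 also 0.75 (0.0534), and on slide 2 alone 0.47 (0.0767). Its probe begins with the letters ACCTCA shown above, and their part in the ratio was not tested.

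Car2, a cytosolic anhydrase, was also higher. The ratios were 0.51, 0.69, 0.24 and 1.43, again above 0 on 4 of 4 arrays, with array 4 standing above the rest. The mean was 0.72 ± 0.20 (n = 4 arrays), a 1.64-fold difference with an adjusted p of 0.0296 in limma. The call was lost without array 1 (0.79, adjusted p = 0.0641), without array 2 (0.73, adjusted p = 0.0776) and with the slide entered as a random factor (adjusted p = 0.0526).

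Car1, the other cytosolic anhydrase, gave the brightest signal of the 9 genes. In Cy3 it read 6497, 14365, 9865 and 7509 units and in Cy5 60577, 53734, 20660 and 31611. The ratios on arrays 1 to 3 were 1.43, 1.17 and 0.04, and the spot on array 4 was flagged as an outlier and left out. The 2 arrays of slide 1 were high and array 3 was at 0, and the mean of 0.88 ± 0.28 (n = 3 arrays) narrowly missed the threshold in limma (adjusted p = 0.0538). Without array 3 the mean was 1.30 (adjusted p = 0.00417), and with flagged spots kept it was 1.89 (adjusted p = 0.000704). In the authors' deposited table, tested the same way, it was 1.12 (adjusted p = 0.00592). Median centring gave 2.26, 1.43 and 1.16 on the 3 arrays.

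The 3 brightest genes, Car1, Car2 and Atp1b1, moved most between the normalizations. Their signals rank at the 98.2nd, 94.2nd and 93.7th percentile of tested probes. Among the 1420 brightest of the 14200 probes with 4 values, the median ratio after median centring was 1.24, 0.92, 0.78 and 0.74 on arrays 1 to 4. Loess, which is meant to remove a trend of the ratio with brightness, brought these to 0.55, 0.65, -0.03 and 0.14. The other 12780 probes were then at 0.12, 0.13, 0.01 and 0.02, so part of the trend stayed on slide 1. Car2, at 0.51 and 0.69, lay near the bright medians on arrays 1 and 2. On arrays 3 and 4 it was above them, at 0.24 and 1.43. Car1 was above them on arrays 1 and 2 (1.43 and 1.17) and near on array 3 (0.04). Car4 at the 72.3rd percentile, Scnn1a at the 50.2nd and Cftr at the 37.6th were called under both normalizations. Before normalization the median Cy5 over Cy3 ratio of the probes was 2.95, 1.76, 1.02 and 1.76, so scanned signals of the channels are not levels to be set against each other.

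**Figure D2:**
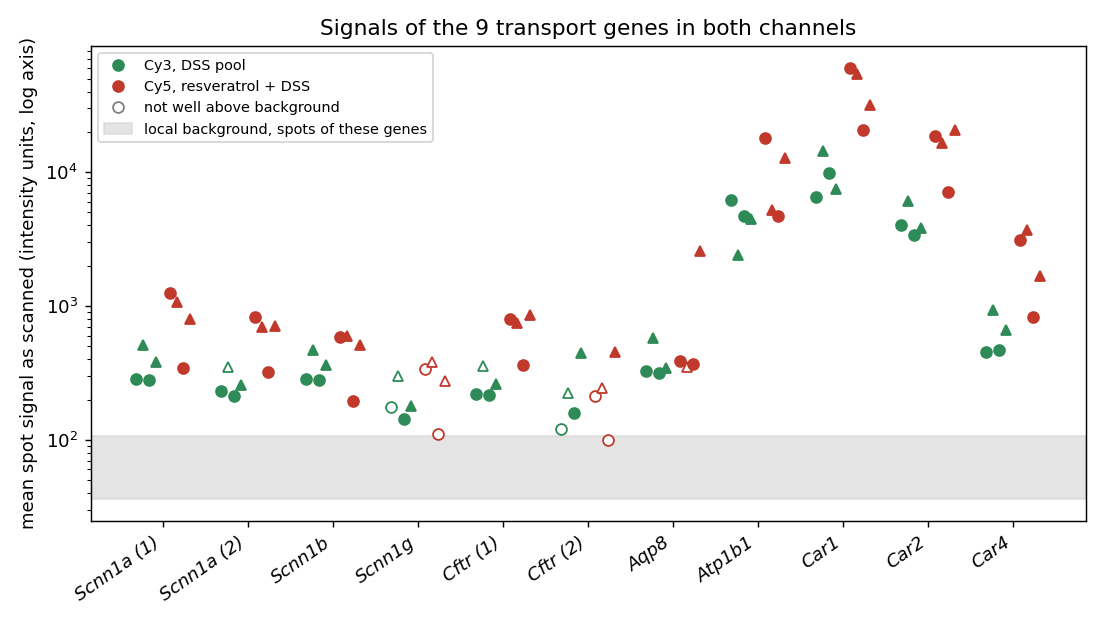
Mean spot signal as scanned (intensity units, log axis) of each probe of the 9 genes in Cy3 (control pool, green) and Cy5 (resveratrol plus DSS, red), with circles for arrays 1 and 3 and triangles for arrays 2 and 4 from left to right. Open points were not well above background and the grey band spans the local background of these spots. Scnn1g and Cftr probe 2 lie nearest to the band, and Car1 reaches 60577 units.

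In all, 8 of the 9 genes could be tested by their brightest probe. Of these, 4 were called higher (Scnn1a, Cftr, Car2 and Car4) and 0 lower, with a median log2 ratio of 0.60. Over all genes, taken by their brightest probe, 25.7% of 9433 were called higher and 19.6% lower, with a median of 0.02. Over all probes the shares were 24.4% higher and 22.7% lower, that is 4597 and 4289 probes. Median centring, which called 6 of the 9 genes higher, split the probes into 6852 higher and 1839 lower. The 4 of 8 stand above that background, but with so few genes the count says little beyond the values of each. The genes were also chosen with earlier results of these data known. At an unadjusted p under 0.05 Scnn1b would be lower and Car1 higher. The count of genes called higher was between 1 and 6 over the alternatives. Only Cftr and the second probe of Scnn1a were called when the standard error was widened by a fixed factor to allow for an unmeasured spread of the pool. That factor was not taken from these data, so the setting does not measure the spread among control rats.

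**Figure D3:**
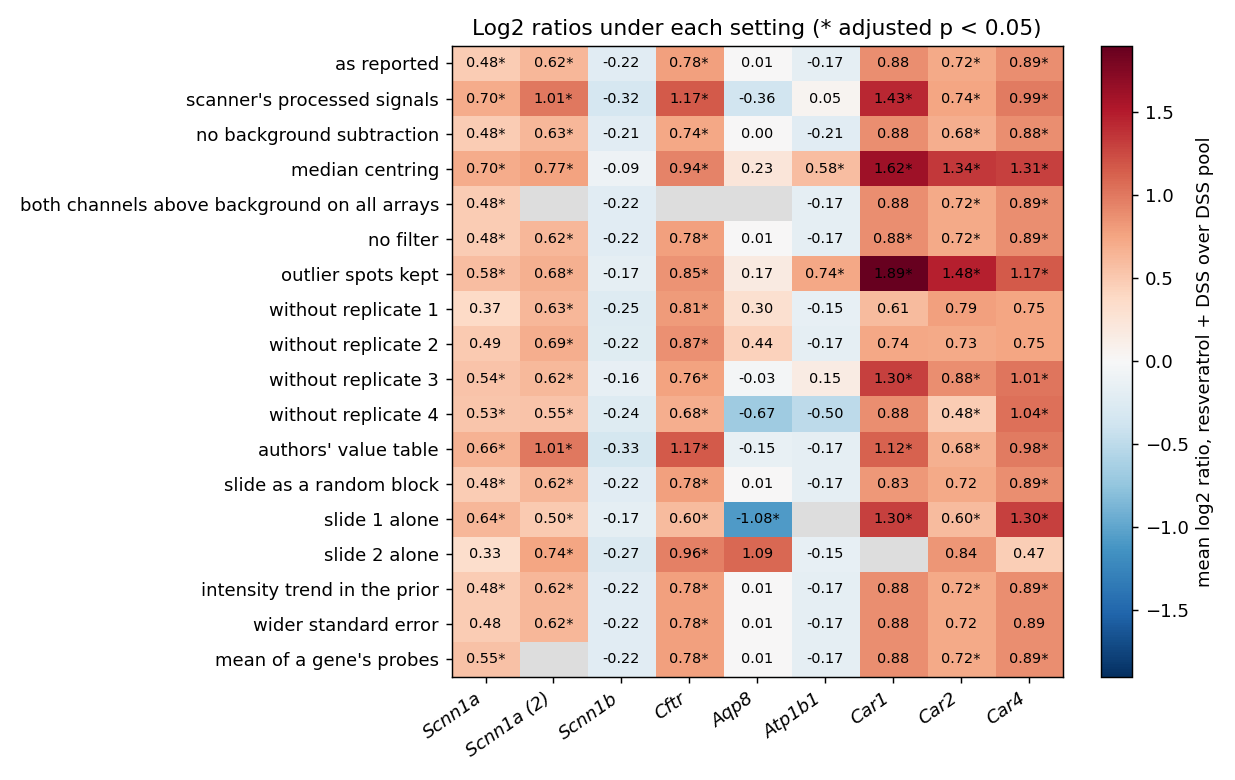
Mean log2 ratio of each tested probe (columns) under each way of processing (rows), coloured from blue (lower with resveratrol) to red (higher). A star marks an adjusted p under 0.05 and grey marks a probe that could not be tested. The Cftr column is starred in every row with a value, while Aqp8 and Atp1b1 change sign between rows.

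The other genes of colonic ion and water transport were taken as 7 lists with 91 genes, chosen with earlier results of these data known. Of these, 86 were on the array and 60 tested. In limma 22 were called higher (36.7%) and 7 lower, against 25.7% and 19.6% of all genes, and 31 were not called, with a median log2 ratio of 0.26. Of the 22, 4 had Cy3 well above background on fewer than 3 arrays and so entered only through the channel where they were high. The count of higher genes was 13 without array 1, 13 without array 2, 8 on slide 2 alone and 38, against 4 lower, under median centring. The same settings called 11.96%, 12.1%, 5.16% and 36.3% of all probes higher. Under median centring the median of all tested probes itself rose to 0.20.

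Several genes that regulate ENaC were higher. Of 13 tested, with a median of 0.39, 7 were called higher and 2 lower, beside 25.7% higher and 19.6% lower among all genes. Of the 7, Nr3c1, the glucocorticoid receptor, had Cy3 well above background on 2 arrays and so entered only through Cy5. With both channels required above background on all arrays, 4 of 11 were higher and 2 lower, beside 19.7% and 15.0% of all probes. Prss8, the membrane protease that activates the channel, had ratios of 1.42, 0.99 and 0.85 on arrays 1 to 3 and a mean of 1.09 ± 0.14 (n = 3, adjusted p = 0.00726). Its probe too holds one of the hexamers, as do those of Slc9a4 and Aqp5 among the transport genes. Aqp5 was at 0.17 ± 0.22 (n = 4) and not called. Nr3c2, the mineralocorticoid receptor through which aldosterone acts, was at 0.95, 0.59, 0.96 and 0.91, with a mean of 0.85 ± 0.10 (n = 4, adjusted p = 0.00475), while a dimmer probe of the same gene was at 0.07. Prss8 and Nr3c2 were called in every alternative they could be run in. Among the genes outside the naming rule, chosen after their values were seen, Hsd11b2, the enzyme that shields that receptor from glucocorticoid, was at 0.53 ± 0.10 and Nedd4l, the ligase that removes the channel from the membrane, at 0.73 ± 0.10 (n = 4 each). Activators and a remover of the channel were therefore higher side by side.

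The called lower regulators were both proteases. Furin, which cleaves the alpha and gamma subunits during their transport, gave -1.17, -2.98 and -0.79 on arrays 1, 3 and 4, a mean of -1.65 ± 0.43 (n = 3, adjusted p = 0.0332). It lost its call without array 1, with the slide as a block, on slide 2 alone and with the wider standard error. Over the alternatives its means lay between -2.08 and -0.52. Tmprss4, a membrane serine protease, had values on arrays 1 and 2 alone, -0.71 and -0.63, with a mean of -0.67 ± 0.13 (n = 2, adjusted p = 0.0235). Under median centring it was not called. Sgk1, the kinase induced by aldosterone, was not called and spread from -0.83 to 1.26.

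Sodium pump and potassium ATPase genes held more lower calls than higher ones. Of 8 tested, with a median of -0.22, 1 was called higher and 4 lower, beside 25.7% higher and 19.6% lower among all genes. Median centring turned this to 3 higher and 1 lower, with a median of 0.14, so the direction of the list depends on the normalization, although none of the 4 lower genes rose above 0 there. These were Fxyd4, a pump modulator of kidney and colon (-0.66 ± 0.19, n = 3), Atp1b2, a beta subunit best known from brain (-0.52 ± 0.12, n = 4), Fxyd2 (-0.40 ± 0.08, n = 4) and Fxyd1 (-0.31 ± 0.09, n = 4). Fxyd2, which the naming rule leaves out, and Fxyd1 were not called under median centring, nor was Fxyd4, which turned to 0.11 with flagged spots kept. The other probes of Atp1b2 were near 0, at -0.11 and -0.00.

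Genes of chloride secretion and its guanylin control held higher calls only. Of 14 tested, 5 were higher and 0 lower, with a median of 0.32, beside 25.7% higher and 19.6% lower among all genes. Guca2b encodes uroguanylin, a peptide whose signal leads CFTR to open, and gave 0.30, 0.33, 0.68 and 1.09, a mean of 0.60 ± 0.15 (n = 4, adjusted p = 0.0237). The receptor itself, Gucy2c, outside the naming rule, was at 0.50 ± 0.10 (n = 4, adjusted p = 0.0133). Clcn2 (0.55 ± 0.09), Ano1 (0.44 ± 0.14) and Clcn3 (0.40 ± 0.09; n = 4 each) were also called higher. Ano1, with Cy3 well above background on 2 arrays, entered through Cy5 and lost its call when any 1 of the 4 arrays was left out.

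Sodium proton and anion exchange genes had the highest median of the lists, 0.68. Of 10 tested, 6 were called higher and 0 lower, beside 25.7% higher and 19.6% lower among all genes. Slc9a4, a sodium proton exchanger, gave 1.74, 0.92, 1.17 and 2.27, a mean of 1.53 ± 0.23 (n = 4, adjusted p = 0.00666), and its probe holds one of the hexamers. Its Cy3 signal was well above background on 2 arrays, so the probe entered through the channel where it is high. The apical exchangers Slc9a2 (1.19 ± 0.15) and Slc9a3 (0.84 ± 0.10; n = 4 each), named after their values were seen, were called in every alternative. Slc4a2, the basolateral chloride bicarbonate exchanger, was at 0.75 ± 0.15 (n = 4, adjusted p = 0.0132) with Cy3 well above background on 1 array, so it too entered through Cy5. Nherf1, the scaffold that holds CFTR and Slc9a3 at the apical membrane, was at 0.61 ± 0.13 (n = 4, adjusted p = 0.0144). Slc4a1 gave 2.32, 1.57, 0.24 and 0.78, a mean of 1.23 ± 0.33 (n = 4, adjusted p = 0.0283). Its second probe was at -0.18, and it lost its call without array 1, 2 or 4. Slc26a3, the chloride bicarbonate exchanger of the surface epithelium, was at 0.27 ± 0.17 (n = 4) and not called.

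The shorter lists held few calls, and with so few genes their shares are not told from the 25.7% higher and 19.6% lower of all genes. Of 4 potassium channel genes tested, 2 were higher and 0 lower, namely Kcne3 (0.49 ± 0.12), the partner subunit of the basolateral channel that drives chloride secretion, and Kcnk1 (0.43 ± 0.10; n = 4 each). Of 5 other aquaporins tested, 1 was higher, Aqp3, a basolateral water and glycerol channel, with 0.69 and 0.89 on the arrays of slide 1 and a mean of 0.79 ± 0.14 (n = 2, adjusted p = 0.0187). Its signal was in the range of the brightest probes, whose medians on arrays 1 and 2 were 0.55 and 0.65. In the authors' table and with the wider standard error Aqp3 was not called. Of 6 other carbonic anhydrases tested, 0 were higher and 1 was lower, Car7 (-0.32 ± 0.08, n = 4, adjusted p = 0.0233). Median centring did not call Car7 and called 3 others of this list higher.

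**Figure D4:**
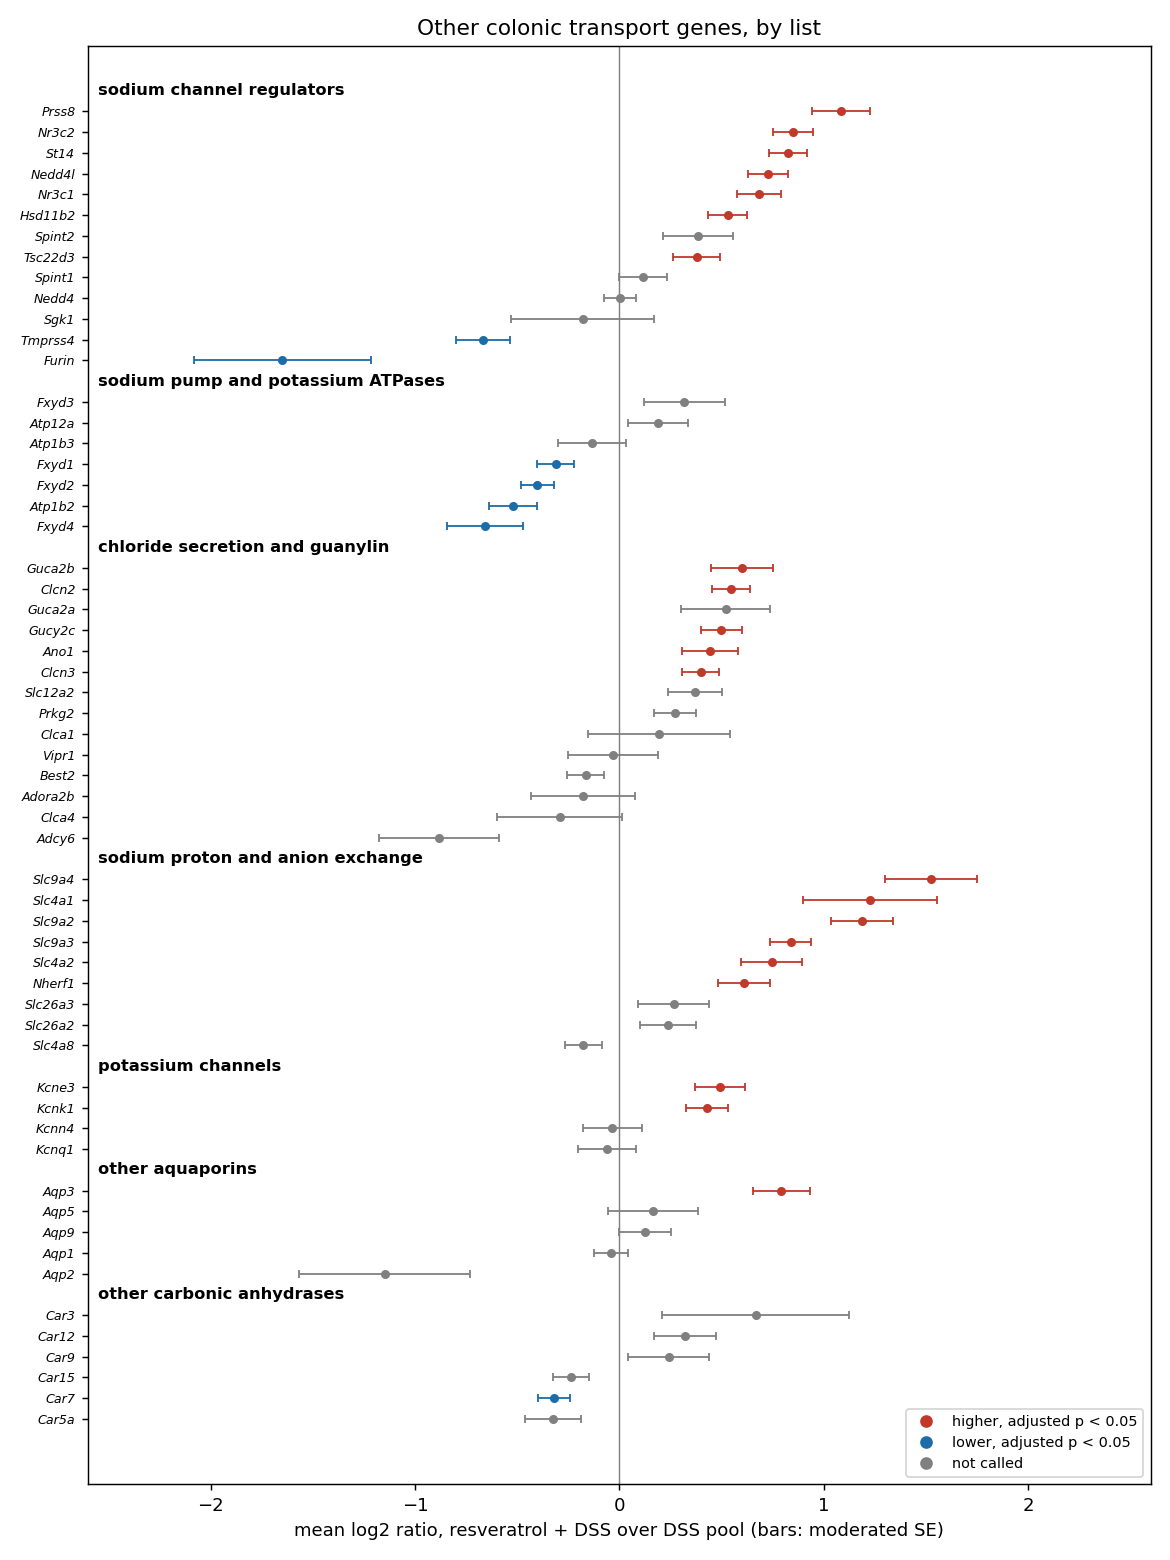
Mean log2 ratio (horizontal axis, resveratrol plus DSS over the DSS pool) of tested genes of the 7 transport lists, those reported here, by their brightest probes, with moderated standard errors. Red genes were called higher, blue lower and grey neither. The exchange genes lie furthest to the right, with Slc9a4 at 1.53, and the 4 called genes of the pump list that are shown lie to the left of 0.

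Several markers of the tissue also differed between the RNA samples, where 25.7% of all genes were called higher and 19.6% lower. Of 12 epithelial markers tested, 5 were higher, 0 lower and 7 not called. The brightest 2 were Krt8 (0.80 ± 0.12, n = 3) and Krt18 (1.38 ± 0.28, n = 4; other probe 0.25). The summed signal of the 7 with values on all arrays was between 18481 and 34459 in the pool and between 34343 and 46707 with resveratrol. Among these, Krt18 was the brightest and was called higher, as was Cdx1. Epcam, Vil1, Slc26a3, Cdh1 and Fabp2 were not called. Of 5 goblet cell markers 2 were higher and 0 lower, Muc2 at 1.63 ± 0.20 (n = 4) and Agr2, named after its values were seen, at 0.47 ± 0.12 (n = 4). Tff3 was at 0.09 ± 0.17 (n = 4; other probe -0.26). Of 3 neutrophil markers tested 3 were lower, among them S100a8 (-3.17 ± 0.23, n = 4; other probes 0.07 and 0.15) and S100a9 (-2.06 ± 0.27, n = 4). Of 5 fibroblast markers 4 were lower, with Col1a2 at -1.95 ± 0.08 (n = 4), although the brightest probe of Col1a1 was at 0.22 ± 0.12 (n = 3) and its other probes at -2.71 and -1.48. Mpo of the neutrophil list and Lum of the fibroblast list were too dim to be tested. Csf3r and Dcn, both called lower, had Cy5 well above background on 2 arrays and 1 array. They entered only through Cy3, the channel where they were high. The part of the epithelial share of the RNA in the ratios of the transport genes was not tested.

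Pancreatic and red cell genes differed between the RNA samples as well, where 25.7% of all genes were called higher and 19.6% lower. Of 9 pancreatic genes tested, 8 were lower, such as Ctrb1 (-2.55 ± 0.10, n = 4). The 6 with values on all arrays had summed signals of 8554 to 11543 in the pool and 1562 to 2473 with resveratrol. Cela1 was at -0.09 ± 0.13 (n = 2), and Cpa1 and Pnlip were too dim to be tested. Cpb1, Prss1 and Amy2a3, all called lower, had Cy5 well above background on 0 arrays. They entered only through Cy3, the channel where they were high. Of 7 red cell genes 6 were lower, with Hbb-b1 at -3.28 ± 0.14 (n = 4), and the seventh is Slc4a1 itself. The 6 red cell genes with values on all arrays, Slc4a1 among them, had summed signals of 12619 to 26285 in the pool and 4368 to 6906 with resveratrol. Epb42, called lower with Cy5 well above background on 1 array, also entered only through Cy3. Car1 and Car2 are also abundant in red cells. Both lay above 0 on every array with a value, as did Slc4a1, and Hbb-b1 lay below 0 on all 4 arrays. Of 4 smooth muscle genes 1 was lower, with Tagln at -1.87 ± 0.66 (n = 4) and Cnn1 at -0.46 ± 0.13 (n = 2), neither called. Of 3 general immune genes 2 were lower, with Lyz2 at -1.06 ± 0.13 (n = 2). Ptprc was not called, at 0.20 ± 0.14 (n = 4; other probes -0.71 and -0.19). The part of any of these in the transport genes was not tested.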

How the data were processed

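Spot intensity values in the deposited files came from the scanner software (Feature Extraction 9.5.3.1, with rn3 probe positions, per the file headers). Limma stands beside that software in the submitters' processing notes. The deposited log10 ratios were not used for the comparison. The authors' deposited table of log2 ratios followed the scanner's values in scale and direction for all 24197 probes (r from 0.981 to 0.992). Its columns had medians of -0.01, -0.01, 0.09 and -0.02, so its centring stays unknown.

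Mean signals were corrected with normexp (offset 50) against local background medians and normalized by loess within arrays in limma 3.58.1 under R 4.3.3. Of 45018 spots 1639 were controls, which had weight 0, and outlier-flagged spots (3.45% to 13.7% per array) were left out. Spots of a probe were averaged. For the summed marker signals, each channel was taken after loess and a quantile normalization of mean brightness between arrays. Between 42.8% and 57.1% of probes were well above background in Cy3 and between 44.1% and 49.2% in Cy5. A probe entered if 1 or both channels were well above background on 3 or more arrays (20409 of 41012), and 18869 of these had 2 or more values. The mean ratio was tested against 0 (lmFit, eBayes, two-sided). The fit was tested on simulated data.

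Names came from accessions, symbols or synonyms through RefSeq's GRCr8 gene table, from which no coordinates were taken, and 20905 probes have no name here. The brightest tested probe stands for a gene. Members and lists were chosen with earlier results of these data known. In each transport list all called genes were named where they were at most 4, otherwise the 2 highest and 2 lowest called, and in each marker list the brightest 2. Some genes of the lists are counted but not reported here. Alternatives were other background corrections, normalization, filters, priors and probe summaries, the authors' table, each array left out, the slides and a wider standard error.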

Additional observations from a re-analysis of the deposited data

Results flagged for a closer look

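In 7 of 56 sets of 4 arrays that were examined among the transport genes, 1 array lay far from the other 3, where chance flags about 1 in 20 sets. For Nr3c2 it was array 2, at 0.59 against 0.91 to 0.96. For Hsd11b2 it was array 4, at 0.78 against 0.42 to 0.47, and for Sgk1 also array 4, at 1.26 against -0.83 to -0.48. For Slc4a8, a sodium-driven chloride bicarbonate exchanger, array 4 was at -0.39 against -0.12 to -0.08. For Spint1, an inhibitor of membrane serine proteases, array 3 was at -0.26 against 0.21 to 0.27. For Aqp2, a water channel best known from the kidney, array 3 was at -2.90 against -0.66 to -0.42. For Car15 array 1 was at -0.045 against -0.31 to -0.29. None of the 9 genes of the report was among them, Aqp8 included.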

How the results depend on the processing

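Over the 15 to 17 alternatives that each could be run in, the mean of Cftr, of both Scnn1a probes, of Car1, Car2 and Car4 stayed above 0 and that of Scnn1b below 0. Aqp8 changed sign with the scanner's processed signals (-0.36), in the authors' table (-0.15), on slide 1 alone (-1.08) and when arrays were left out (-0.67 to 0.44). Atp1b1 changed sign with processed signals (0.049), median centring (0.58), flagged spots kept (0.74) and when arrays were left out (-0.50 to 0.15). Leaving out 1 array gave 3410 to 8964 called probes against 8886, 1 to 5 of the 9 genes higher against 4, and 13 to 26 transport genes higher and 0 to 8 lower against 22 and 7. Median centring, where the fit drew every probe to the same variance, gave 38 higher and 4 lower, and flagged spots kept gave 37 higher. Requiring both channels above background on all arrays left 4551 called probes, and averaging a gene's probes 4400 called genes. Slide 1 alone called 1 of the 9 genes lower, Aqp8. Slide 2 alone called 1749 probes, 1 of the 9 genes higher, and 8 transport genes higher and 2 lower. The wider standard error called 2180 probes, 1 of the 9 genes, and 8 transport genes higher and 0 lower. The cause was not tested, though fewer arrays or probes enter several of these. No paired analysis was possible because a single group was measured against a pool. Signal over background limits Scnn1g and the second Cftr probe, which gave no test.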

Other observations

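Nr3c1, the glucocorticoid receptor and a close relative of Nr3c2, was also higher, at 0.43, 0.58, 0.81 and 0.91 with a mean of 0.68 ± 0.11 (n = 4, adjusted p = 0.00759), chosen here after its values were seen. Its Cy3 signal was well above background on 2 arrays, and a second probe of the gene was at 0.21. St14, the membrane protease matriptase that acts with Prss8, gave 0.99, 0.85, 0.64 and 0.82, a mean of 0.83 ± 0.09 (n = 4, adjusted p = 0.00451), and was called in all 17 alternatives. Of its inhibitors, Spint1 was at 0.12 ± 0.12 (n = 4) and not called.

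Furin and Aqp2, both among the brightest probes of the transport lists, had their lowest value on array 3, at -2.98 and -2.90. Their other arrays lay between -1.17 and -0.42. An effect of the array and one of the rats on it cannot be told apart.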
